A study of Mus musculus with 24 samples.

Results

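Mitotic cell cycle genes, a set of 38 named genes that drive or carry out cell division, were described in kidney RNA from BPH/2J mice, which are hypertensive, and BPN/3J mice, which are not. A gene was taken as measured where a probe set of the array carried its symbol and no other, and where several did, the probe set with the highest mean was used. By this rule 34 of the 38 genes were measured, out of 18782 genes with such a probe set. Kif20a, Nusap1 and Ube2c were present only on probe sets shared with another gene, and Ccnb1 was not analysed here.

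The series held 24 Affymetrix Mouse Gene ST arrays of total kidney RNA, 6 from each sex of each strain, all from mice of 12 weeks of age, and the labels name no drug, transgene or other allele in any group. BPH/2J is an inbred line selected for high blood pressure and BPN/3J is the normotensive line bred beside it, so a strain difference pools every locus at which the lines differ. Besides a replicate number shared across groups, the description of each sample ended in a number that no other sample carried, and the samples were taken as separate mice. Blood pressure was not taken in the mice used for the arrays. The study compared the strains within each sex to find kidney genes tied to hypertension in males and in females. Values are log2 expression after robust multiarray averaging (RMA), so a difference of 1 is a 2-fold change, and levels of different genes are not comparable on this scale. A difference is called at a Benjamini-Hochberg adjusted p under 0.05 in limma over all 28853 probe sets, and a stricter call uses the Bonferroni-adjusted p.

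Dividing cells switch on these genes late in the cycle. Cdk1 with its A- and B-type cyclins drives entry into mitosis, condensins compact the chromosomes, kinesins and centromere proteins build and use the spindle, the spindle checkpoint holds the anaphase-promoting complex until every chromosome is attached, and the cytokinesis proteins then part the daughter cells. In most cells the genes are repressed in quiescence by the DREAM complex and activated by B-Myb and FoxM1, through the cell cycle homology region (CHR) and CCAAT boxes in their promoters. Adult kidney tubule cells divide rarely outside repair, so few cells of a whole kidney are likely to be in mitosis. Which cells gave the signal was not measured here.

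The CHR and CCAAT letters were searched because they are known from promoters of mitotic genes, so their presence in this set was looked for. The promoters of 4 members that were lower in BPH/2J males are shown with these letters marked. Each is the 250 bases before the RefSeq start (GRCm38.p6), 5′ to 3′ in the direction of the gene, and capitals mark TTTGAA or TTCGAA (CHR letters) and CCAAT, or the reverse complement of either.
Ncapg (chr5:45669675-45669924, plus strand): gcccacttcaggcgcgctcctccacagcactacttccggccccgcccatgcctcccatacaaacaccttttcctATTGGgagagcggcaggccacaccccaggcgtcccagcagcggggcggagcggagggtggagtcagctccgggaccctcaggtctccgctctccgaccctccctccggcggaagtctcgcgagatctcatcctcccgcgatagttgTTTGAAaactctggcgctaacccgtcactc
Bub1b (chr2:118597961-118598210, plus strand): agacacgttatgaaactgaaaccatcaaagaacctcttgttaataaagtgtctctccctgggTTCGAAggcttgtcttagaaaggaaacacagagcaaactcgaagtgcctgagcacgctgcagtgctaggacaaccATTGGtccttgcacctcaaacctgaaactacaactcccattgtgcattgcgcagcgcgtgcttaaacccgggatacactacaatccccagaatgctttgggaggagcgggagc
Ccnb2 (chr9:70421555-70421804, minus strand): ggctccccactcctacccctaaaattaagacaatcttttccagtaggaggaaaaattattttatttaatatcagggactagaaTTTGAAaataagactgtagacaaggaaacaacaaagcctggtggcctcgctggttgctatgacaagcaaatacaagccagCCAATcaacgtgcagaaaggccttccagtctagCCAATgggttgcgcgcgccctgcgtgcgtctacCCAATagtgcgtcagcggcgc
Mki67 (chr7:135716380-135716629, minus strand): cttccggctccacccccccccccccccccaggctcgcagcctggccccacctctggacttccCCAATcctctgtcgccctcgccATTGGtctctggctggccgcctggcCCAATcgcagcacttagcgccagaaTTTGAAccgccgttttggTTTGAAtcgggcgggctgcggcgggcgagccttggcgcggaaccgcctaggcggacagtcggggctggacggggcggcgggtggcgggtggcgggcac

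Of the 34 measured members, 30 had a promoter window of 300 bases in RefSeq, reaching 50 bases past the start, and Aurkb, Ccna2, Smc4 and Tpx2 had none. TTTGAA, read on both strands, was in 24 of these 30 windows (80%) and in 16.5% of the 17491 windows of all protein-coding genes. TTCGAA, which reads the same on both strands, was in 3 member windows (10%) and in 1.87% of all. CCAAT on either strand was in 23 member windows (76.7%) and in 39.0% of all, and 21 windows (70%) held CHR letters and CCAAT together, against 7.43% of all. The E2F letters TTTCGCG were in 1 member window, that of Cdk1 (3.33%), against 1.17% of all. Counted from the start, with -1 the base before it, TTTGAA began at position -30 in Ncapg and at -116 and -98 in Mki67. In Ccnb2 it began at -167 and at 5, the latter past the stretch shown, and the CCAAT copies began at -87, -54 and -21. In Bub1b the TTTGAA began at position 41, past the stretch shown, which holds a TTCGAA at -188. Birc5, Bub1, Cenpe, Melk, Ncaph and Nek2 had no TTTGAA in this window. By what the members did in the kidneys, 6 of the 7 members lower in BPH/2J males held TTTGAA, as did 8 of the 11 lower in BPN/3J females than males and 10 of the 12 windows of members called in no comparison. A match is a description of the letters and not a test of binding.

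The 24 arrays were alike in scale, with array medians of 6.89 to 6.97 and correlations between arrays of 0.974 to 0.9972. The kidney label was borne out by its markers: the mean of 11 proximal tubule genes was 12.88 to 13.09 and that of 8 loop, distal and collecting duct genes 11.16 to 11.65 over all arrays. Markers of other tissues varied far more. The mean of 19 hepatocyte genes ran from 7.0 to 12.08, with BPN/3J female arrays 2 and 5 at 11.83 and 12.08 and every other array at 9.90 or under, and the mean of 9 adrenal cortex genes ran from 6.01 to 10.25. Of the members, 20 had a mean at or above the 40th percentile of all probe sets (6.21) and 14 lay under it, Ncapg and Bub1b among the latter, so part of the set was measured among the dimmer probe sets of the array. The kidneys were measured whole. Fewer dividing cells, less mitotic RNA per cell and a change in cells that do not divide cannot be told apart.

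In males, the members of the set tended to be lower in the hypertensive strain. Compared with BPN/3J, 7 of the 34 members fell and 0 rose (20.6% lower, against 8.15% lower, 8.58% higher and 16.7% called either way over all 18782 genes). The 7 were Ncapg, Bub1b, Ccnb2, Mki67, Kif23, Melk and Cenpf, and each of the 8 roles into which the set was divided held 1 of them except cytokinesis, which held 0. Over the whole set 29 of 34 differences were below 0 and the median log2 difference was -0.14, while the median over all genes was 0.00. Only Ncapg and Bub1b passed the Bonferroni threshold (2 of 34, against 1.24% of all genes lower and 2.57% either way).

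**Figure D1:**
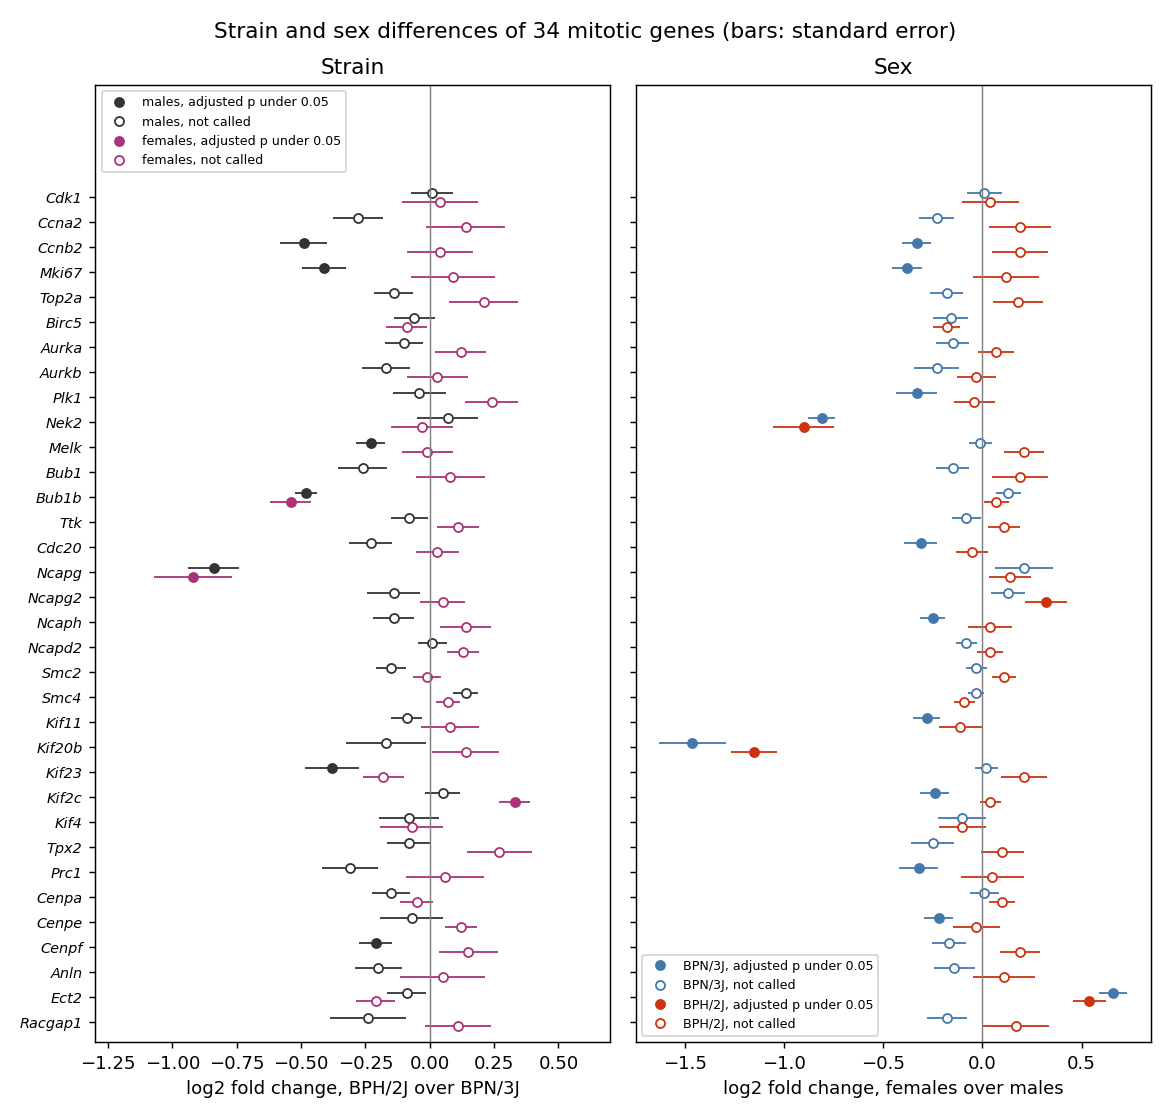
Log2 fold change of the 34 members (rows) for strain (left, BPH/2J over BPN/3J, in males and in females) and for sex (right, females over males, in each strain), with bars for the standard error and filled points for a Benjamini-Hochberg adjusted p under 0.05. In males 29 of 34 strain differences lie left of 0, and Ncapg and Bub1b lie left of 0 with filled points in both sexes.

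Ncapg encodes the HEAT-repeat subunit CAP-G of condensin I, the ring complex that compacts mitotic chromosomes. Its log2 level was 5.55, 5.74 and 6.02 (lowest, median and highest of 6) in BPN/3J males and 4.56, 4.89 and 5.18 in BPH/2J males. It was 5.58, 5.99 and 6.30 in BPN/3J females and 4.85, 4.99 and 5.27 in BPH/2J females. Every BPH/2J array was below every BPN/3J array of the same sex. The difference was -0.84 (SE 0.0984, adjusted p = 4.37e-05) in males, a 1.79-fold lower level, and -0.92 (SE 0.15, adjusted p = 0.000887) in females, a 1.89-fold lower level. These differences did not differ detectably between the sexes, with an interaction of -0.08 (95% interval -0.47 to 0.31, adjusted p = 0.925). BPN/3J females were the most spread group for this gene (SD 0.36), with arrays 2, 5 and 6 at 6.27 to 6.30 and arrays 1, 3 and 4 at 5.58 to 5.71.

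Bub1b encodes BubR1, the checkpoint kinase-like protein that holds Cdc20 and the anaphase-promoting complex in check. It stood at 5.98, 6.11 and 6.15 in BPN/3J males and 5.55, 5.60 and 5.73 in BPH/2J males. In females it was 6.01, 6.24 and 6.40 in BPN/3J and 5.52, 5.67 and 5.94 in BPH/2J. As for Ncapg, the strains did not overlap in either sex. The difference was -0.48 (SE 0.0427, adjusted p = 3.42e-06) in males and -0.54 (SE 0.0792, adjusted p = 0.000401) in females, with an interaction of -0.06 (95% interval -0.25 to 0.13, adjusted p = 0.862). Neither gene was called between the sexes in BPN/3J (Ncapg 0.21, Bub1b 0.13) or in BPH/2J (Ncapg 0.14, Bub1b 0.07). At the Bonferroni threshold both passed in males (adjusted p = 0.029 for Ncapg and 0.00135 for Bub1b) and neither in females (1.0 and 0.421). Whether probes of these or other genes lie over sequence variants between the strains was not checked. The strain differences given here are differences of array signal.

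Because Ncapg and Bub1b were the only members called lower in both sexes, their neighbours on the chromosome were read, the 3 nearest measured genes on each side. These genes were singled out after their values were seen. Next to Bub1b, Pak6, a p21-activated kinase, was lower in BPH/2J by -0.70 in males (SE 0.0499, adjusted p = 3.46e-07) and -0.78 in females (SE 0.0583, adjusted p = 8.71e-07), and Bmf, a BH3-only cell death gene, by -0.28 and -0.38 (adjusted p = 0.0481 and 0.0072). Next to Ncapg, Fam184b was lower by -0.39 and -0.46 (adjusted p = 0.00124 and 0.000385), while Med28, a Mediator subunit, was higher by 0.28 and 0.21 (adjusted p = 0.00167 and 0.00518) and Lcorl was not called (-0.09 and 0.05). Slit2, an axon guidance ligand, was higher by 0.55 and 0.54 (adjusted p = 1.98e-06 and 9.26e-06), and Mir218-1, a microRNA gene inside it, by 0.98 and 0.72 (adjusted p = 0.000304 and 0.00796). The remaining neighbours were Lap3 (0.20, adjusted p = 0.00226, in males and -0.02 in females), Eif2ak4 (0.14, adjusted p = 0.0398, and 0.03), Srp14 (0.15 in males and 0.23, adjusted p = 0.00106, in females), Plcb2 (0.25 and 0.12, not called) and Inafm2 (-0.21, adjusted p = 0.0277, and -0.11). Strain differences around both genes ran in both directions, and their relation to the members was not tested.

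**Figure D2:**
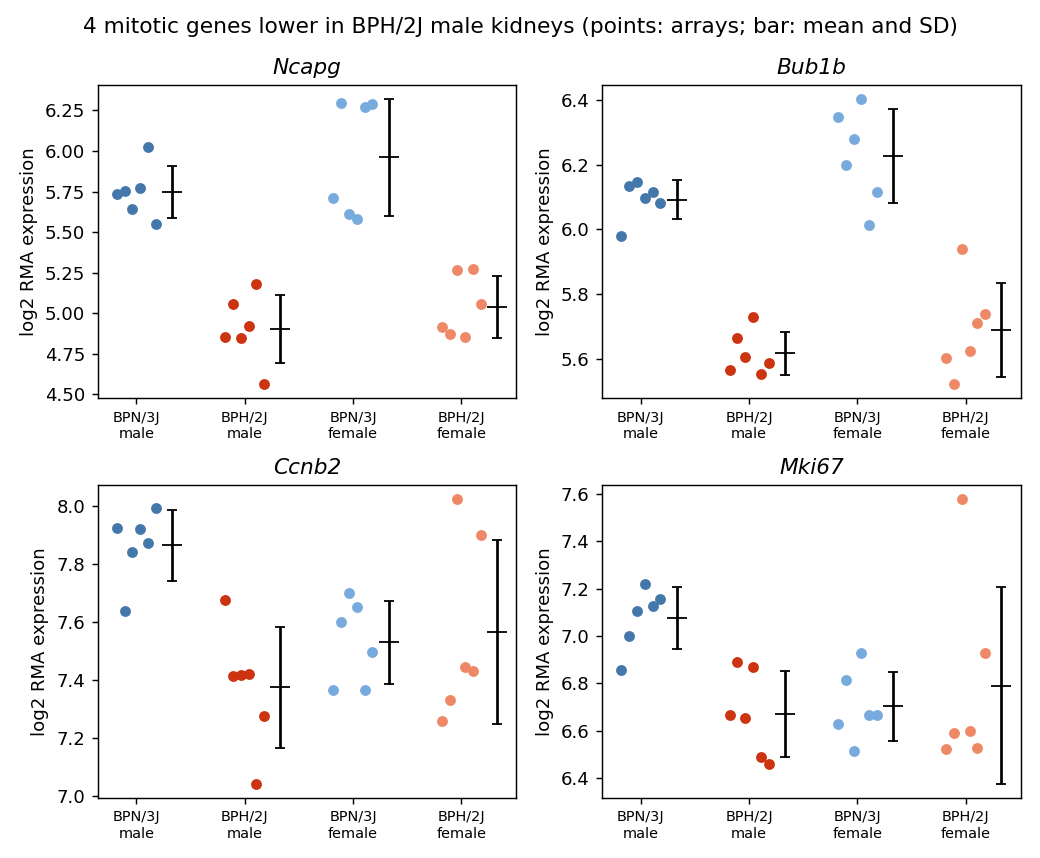
Log2 RMA expression of Ncapg, Bub1b, Ccnb2 and Mki67 in the 4 groups; points are the 6 arrays of a group and the bar its mean and SD, each panel on its own scale. Ncapg and Bub1b separate the strains in both sexes, while for Ccnb2 and Mki67 BPN/3J males sit highest and 1 BPH/2J female array stands above the rest at 8.02 and 7.58.

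Ccnb2 and Mki67 were lower in BPH/2J males without a call in females. Ccnb2, a B-type cyclin that partners Cdk1, was 7.64, 7.90 and 7.99 in BPN/3J males and 7.04, 7.42 and 7.68 in BPH/2J males, where 5 of 6 BPH/2J arrays lay below all BPN/3J arrays. Its difference was -0.49 (SE 0.0905, adjusted p = 0.00204). In females it was 7.36, 7.55 and 7.70 in BPN/3J and 7.26, 7.44 and 8.02 in BPH/2J, a difference of 0.04 (SE 0.129, 95% interval -0.24 to 0.31). The male and female strain differences were apart by 0.52 (95% interval 0.19 to 0.86), the lowest interaction p of the set, with an unadjusted p of 0.00403 and an adjusted p of 0.124.

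Mki67 encodes Ki-67, the nuclear protein used to stain cycling cells. It was 6.86, 7.12 and 7.22 in BPN/3J males and 6.46, 6.66 and 6.89 in BPH/2J males, a difference of -0.41 (SE 0.0849, adjusted p = 0.00479). Females lay at 6.51, 6.67 and 6.93 in BPN/3J and 6.52, 6.59 and 7.58 in BPH/2J, a difference of 0.09 (SE 0.162, 95% interval -0.26 to 0.44). The interaction was 0.50 (adjusted p = 0.245). For both genes the median of the BPH/2J females was below that of the BPN/3J females, and the mean was above it.

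The differences of the remaining members that fell in BPH/2J males were smaller. Kif23, the kinesin of the centralspindlin complex at the midzone, went from 6.46, 6.69 and 6.80 to 5.82, 6.32 and 6.56 (-0.38, SE 0.105, adjusted p = 0.0269). Melk, a kinase made in dividing and progenitor cells, went from 5.28, 5.36 and 5.46 to 4.92, 5.14 and 5.26 (-0.23, SE 0.0578, adjusted p = 0.0149), and its groups did not overlap. Cenpf, a large kinetochore protein of G2 and mitosis, went from 5.69, 5.76 and 6.01 to 5.42, 5.62 and 5.71 (-0.21, SE 0.064, adjusted p = 0.0445). These calls depended on the setting: the call was lost in 8 of 23 alternatives for Kif23 and 16 of 22 for Cenpf. Melk lost its call in 2 of 22, the fit to all 24 arrays and the replicate block. In females the strain differences were -0.18 for Kif23 (95% interval -0.35 to -0.01, adjusted p = 0.16), -0.01 for Melk and 0.15 for Cenpf, none called. Arrays did not overlap between the male groups for 3 members, Ncapg, Bub1b and Melk, all lower (3 of 34, against 5.3% of all genes lower and 5.57% higher).

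Among members not called in males, Ccna2, the A-type cyclin of S phase and early mitosis, differed by -0.28 (adjusted p = 0.0771), Prc1, which bundles midzone microtubules, by -0.31 (adjusted p = 0.0803), Bub1, the checkpoint kinase, by -0.26 (adjusted p = 0.0941) and Cdc20, the activator of the anaphase-promoting complex, by -0.23 (adjusted p = 0.0803). Cdk1 itself, the kinase at the centre of the set, stood at 6.52, 6.81 and 6.96 in BPN/3J males and 6.63, 6.77 and 6.99 in BPH/2J males (0.01, 95% interval -0.17 to 0.18). Smc4, the condensin ATPase subunit, had the highest difference, 0.14 (adjusted p = 0.0822). The 6 condensin genes ran from -0.84 for Ncapg to 0.14 for Smc4, with Ncapg2 and Ncaph both at -0.14, Ncapd2 at 0.01 and Smc2 at -0.15. The differences of the other members not called lay between -0.24, for Racgap1, and 0.07, for Nek2.

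Beside these male differences, the marker lists of other cells were read for the same comparison, in which 8.58% of all genes were higher and 8.15% lower. Of 9 lymphocyte genes 0 were called in either direction in any of the 5 comparisons, and their mean was 6.09 to 6.61 in BPN/3J males and 5.90 to 7.09 in BPH/2J males. The medians of that mean were 6.19 and 5.98. In males 7 of the lymphocyte differences were below 0 and 2 above, with a median of -0.12. The BPH/2J male array with the highest lymphocyte mean, array 4, was the highest of its group for all 9 lymphocyte genes and for 2 of the 34 members. Of 10 macrophage genes 4 were lower in BPH/2J males (mean 7.81 to 7.99 in BPN/3J and 7.69 to 7.91 in BPH/2J), and of 10 fibroblast and smooth muscle genes 6 were higher (8.72 to 8.90 and 9.07 to 9.15). Of 5 podocyte genes 4 were higher (7.73 to 8.06 and 8.25 to 8.32). Of the other lists, hepatocyte, adrenal cortex, endothelial and adipocyte genes had 1 call each (of 19, 9, 9 and 8), erythroid and proximal tubule genes 2 (of 7 and 11), loop, distal and collecting duct genes 5 (of 8), tubular injury genes 6 (of 8) and neutrophil genes 0 (of 7). Their part in the member differences was not tested.

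In females, the set as a whole did not follow the males. Compared with BPN/3J, 2 of 34 members were lower in BPH/2J, Ncapg and Bub1b, and 1 was higher, Kif2c (5.88% lower and 2.94% higher, against 6.89% and 9.05% of all genes and 15.9% either way). The share called was below that of all genes. At the Bonferroni threshold 0 members were called in limma (2.32% of all genes). An unadjusted p under 0.05 was found for 6 members, and for 5303 of all 18782 genes. The median difference was 0.06, and over all genes 0.02, with 24 members above 0 and 10 below. Kif2c, a kinesin that takes apart microtubule ends to correct wrong attachments, was 5.12, 5.35 and 5.49 in BPN/3J females and 5.54, 5.68 and 5.75 in BPH/2J females, without overlap (0.33, SE 0.06, adjusted p = 0.0022). In males its difference was 0.05, and the interaction of 0.28 was not called (adjusted p = 0.145). The strains did not overlap for 3 members in females, Ncapg and Bub1b lower and Kif2c higher (4.67% of all genes lower and 5.64% higher).

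The female comparison rested in part on 1 array. BPH/2J female array 3 was the highest of its 6 for 28 of 34 members, against 15.9% of all genes, and lay above the group mean for 32 of 34, by a median of 0.27. Its Mki67 level was 7.58 beside 6.52 to 6.93 in the other BPH/2J females, its Ccna2 level 7.56 beside 6.59 to 6.79, and its Cdk1 level 7.54 beside 6.48 to 6.77. The same array was highest for 28 of 51 other mitotic genes and for 15 of 35 S phase genes. Without it, the median strain difference in females was -0.02, with 12 members above 0 and 22 below, and 4 members were lower and 1 higher: Ncapg (-0.97, adjusted p = 0.00137), Bub1b (-0.59, adjusted p = 0.000151), Ect2 (-0.26, adjusted p = 0.0241), Kif23 (-0.24, adjusted p = 0.0351) and Kif2c (0.31, adjusted p = 0.00621). Ccnb2 was then at -0.06 and Mki67 at -0.07, neither called. The array was picked from these same member values, so leaving it out lowers the BPH/2J female mean of most members by construction. The calls without it are therefore not independent support, and the share over all genes in that fit is not given here.

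Other tissue markers were also high in that array. It was the highest of its group for 8 of 9 lymphocyte genes (list mean 6.66, and 5.74 to 5.97 in the other 5), for 18 of 19 hepatocyte genes (9.87, and 7.15 to 8.35) and for 6 of 10 macrophage genes (8.04, and 7.73 to 7.93). Its tubular injury mean was 9.23, and 8.88 to 9.0 in the other 5, with the array highest for 4 of 8 genes. It was highest for 1 of 7 erythroid, 0 of 7 neutrophil and 0 of 5 podocyte genes. Its fibroblast and smooth muscle mean, 9.56, was also the highest of its group (lowest 9.35, median 9.50). Its adrenal cortex, adipocyte, endothelial, proximal tubule and loop, distal and collecting duct means were not. Their part in the member levels was not tested. Among the BPN/3J females, array 4 was highest for 18 of 34 members, with a median of 0.15 above its group. That array was also highest for 7 of 9 adrenal cortex, 6 of 9 endothelial, 6 of 10 fibroblast and smooth muscle and 5 of 8 loop, distal and collecting duct genes, and for 0 of 9 lymphocyte and 0 of 19 hepatocyte genes, against 18.9% of all genes. Its neutrophil mean (5.43) was the highest of the group, and its erythroid mean (7.03) shared that place with array 3. Its macrophage, podocyte, adipocyte, proximal tubule and tubular injury means were not the highest. Their part in the member levels was not tested. In males the highest such count was 13, in BPH/2J male array 1.

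**Figure D3:**
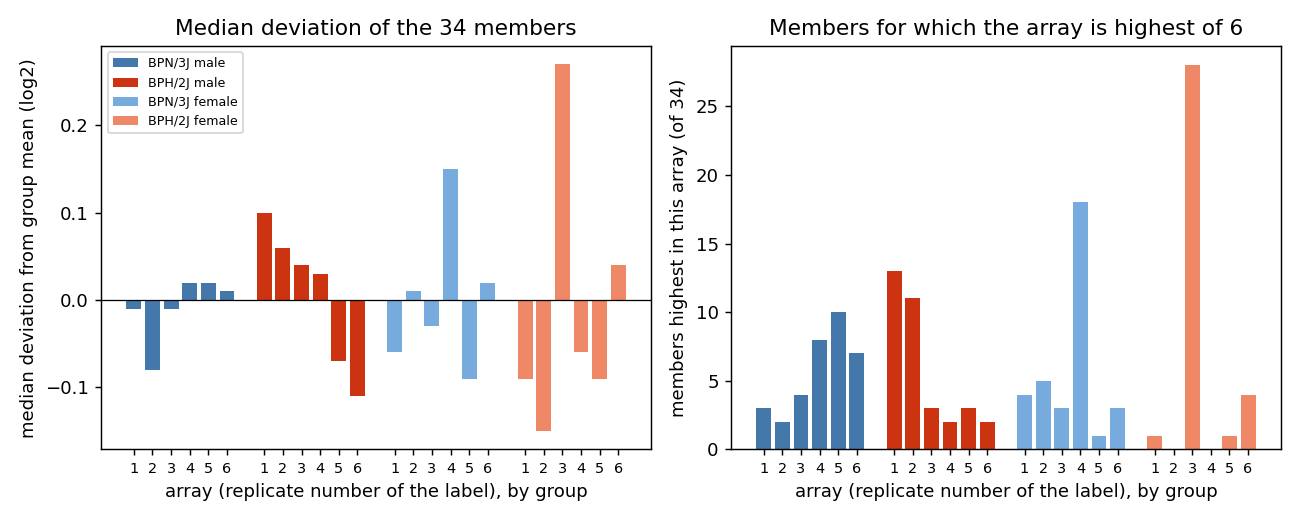
Each bar is 1 array, by group and replicate number: left, the median deviation of the 34 members from their group mean (log2); right, the number of members for which that array is the highest of its 6. BPH/2J female array 3 stands at 0.27 and 28 members, and BPN/3J female array 4 at 0.15 and 18.

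Whether the strain difference depended on sex was tested by the interaction, the strain difference in females minus that in males. In limma 0 of 34 members were called (2.23% of all genes), and the lowest adjusted p was 0.124, that of Ccnb2. An unadjusted p under 0.05 was found for 9 members, and for 2491 of all 18782 genes. The interaction was above 0 in 28 of 34 members with a median of 0.21, beside 0.01 over all genes, and without BPH/2J female array 3 it was above 0 in 27 with a median of 0.16. A decrease limited to males was not shown for any single member. The next lowest interactions by p after Ccnb2 were those of Kif2c (0.28, adjusted p = 0.145), Mki67 and Cenpf (0.35, adjusted p = 0.247).

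Between the sexes, 3 members were called in the same direction in each strain: Kif20b, Nek2 and Ect2. Kif20b encodes a kinesin of late mitosis and cytokinesis. It was 6.42, 6.75 and 7.36 in BPN/3J males and 4.89, 5.5 and 5.66 in BPN/3J females, and 6.30, 6.69 and 7.02 in BPH/2J males and 5.31, 5.51 and 5.78 in BPH/2J females. The sexes did not overlap in either strain. Females were lower by -1.46 in BPN/3J (SE 0.168, adjusted p = 2.37e-05, 2.74-fold) and by -1.15 in BPH/2J (SE 0.114, adjusted p = 5.9e-06, 2.22-fold), the largest differences of any member in any comparison. The strains were not called apart for Kif20b in males (-0.17) or females (0.14).

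Nek2 encodes a centrosomal kinase that parts the centrosomes at the onset of mitosis. It was 7.22, 7.38 and 7.48 in BPN/3J males and 6.30, 6.57 and 6.72 in BPN/3J females, a difference of -0.81 (SE 0.0693, adjusted p = 1.69e-06). In BPH/2J it was 6.96, 7.46 and 7.76 in males and 6.09, 6.51 and 6.92 in females, a difference of -0.90 (SE 0.153, adjusted p = 0.000574). Ect2, the exchange factor that activates RhoA at the cleavage furrow, ran the other way. It was 8.10, 8.25 and 8.48 in BPN/3J males and 8.80, 8.95 and 9.0 in females (0.66, SE 0.0697, adjusted p = 1.18e-05), and 8.07, 8.16 and 8.39 in BPH/2J males and 8.52, 8.72 and 8.97 in females (0.54, SE 0.0811, adjusted p = 0.00023). Its 12 female arrays were all above its 12 male arrays. The difference between the strains in these sex effects is the same interaction and was not called for Kif20b (0.31, adjusted p = 0.616), Nek2 (-0.10, adjusted p = 0.895) or Ect2 (-0.12, adjusted p = 0.739).

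**Figure D4:**
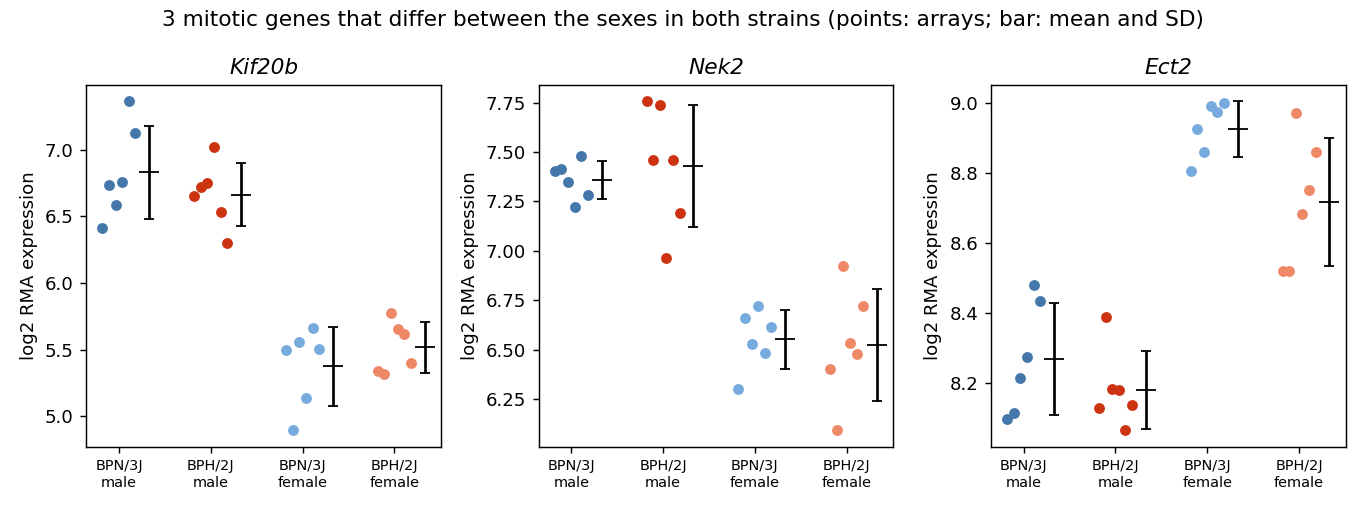
Log2 RMA expression of Kif20b, Nek2 and Ect2 in the 4 groups; points are the 6 arrays of a group and the bar its mean and SD, each panel on its own scale. Kif20b and Nek2 were lower, and Ect2 higher, in every female array than in every male array of the same strain.

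Within BPN/3J, 11 of 34 members were lower in females than in males and 1 was higher (32.4% lower, against 16.6% of all genes lower, 16.5% higher and 33.1% either way). The median difference was -0.16, and over all genes -0.02, with 27 members below 0. Besides Kif20b and Nek2, the 11 included Mki67 (-0.38, adjusted p = 0.00206) and Ccnb2 (-0.33, adjusted p = 0.0036), the polo-like kinase Plk1 (-0.33, adjusted p = 0.0302), Prc1 (-0.32, adjusted p = 0.0262) and Cdc20 (-0.31, adjusted p = 0.0129). The Ccnb2 and Mki67 medians were 7.55 and 6.67 in these females and 7.90 and 7.12 in the males. The 11 also included Kif11, the motor that pushes the spindle poles apart (-0.28, adjusted p = 0.00701), the condensin I subunit Ncaph (-0.25, adjusted p = 0.00971), Kif2c (-0.24, adjusted p = 0.0255) and the centromere motor Cenpe (-0.22, adjusted p = 0.0377). Plk1 was 6.03, 6.32 and 6.69 in females and 6.48, 6.62 and 6.90 in males, and Cdc20 6.12, 6.40 and 6.54 and 6.50, 6.68 and 6.86, each with partial overlap. Kif11 was 6.27, 6.44 and 6.59 in females and 6.62, 6.70 and 6.89 in males, without overlap. The groups also did not overlap for Kif20b and Nek2, lower, and Ect2, higher (10.9% of all genes lower and 10.2% higher). At the Bonferroni threshold 3 members were called, Kif20b, Nek2 and Ect2 (6.02% of all genes). This comparison shares the BPN/3J male arrays with the male strain comparison, in which Ccnb2 and Mki67 were also called, so the values stand side by side and are not independent. Kif11 was called on its highest-mean probe set alone. The other, with a mean of 4.38, differed by -0.05 (adjusted p = 0.891). The same held for Prc1, whose other probe set, with a mean of 4.6, differed by -0.14 (adjusted p = 0.264).

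The calls on Plk1, Prc1 and Cenpe were the least steady, being lost in 11 of 24, 9 of 23 and 13 of 23 alternatives. Without BPN/3J female arrays 2 and 5, those high in hepatocyte transcripts, 7 members were lower and 2 higher. Of the marker lists, 5 of 5 podocyte, 8 of 10 fibroblast and smooth muscle and 5 of 9 endothelial genes were higher in BPN/3J females than males (list means 8.33 to 8.53 beside 7.73 to 8.06, 9.05 to 9.34 beside 8.72 to 8.90, and 10.05 to 10.17 beside 9.90 to 10.01). Loop, distal and collecting duct genes were higher for 6 of 8 (11.42 to 11.57 beside 11.16 to 11.31), tubular injury genes were higher for 4 and lower for 1 of 8 (8.82 to 9.13 beside 8.61 to 8.72), and proximal tubule genes were higher for 4 and lower for 4 of 11. The adrenal cortex mean had a median of 9.36 in these females and 6.81 in the males, with 0 of 9 genes called higher and 1 lower. Of the remaining lists, hepatocyte, neutrophil and adipocyte genes had 2 lower each, and erythroid and macrophage genes 1 higher each. Their part in the member differences was not tested.

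Within BPH/2J, 2 members were lower in females, Kif20b and Nek2, and 2 were higher, Ect2 and Ncapg2 (5.88% each way, against 15.5% of all genes lower, 17.4% higher and 32.9% either way). The share of members called was below that of all genes. Ncapg2, a condensin II subunit, was 5.49, 5.85 and 6.17 in males and 6.0, 6.11 and 6.47 in females (0.32, SE 0.105, adjusted p = 0.0376), and this call was lost in 12 of 22 alternatives. Without BPH/2J female array 3 its difference was 0.25 (adjusted p = 0.0745). The median over the members was 0.08, and 0.02 without that array. For 3 members the sexes did not overlap, Kif20b and Nek2 lower and Ect2 higher (10.9% of all genes lower and 10.8% higher). At the Bonferroni threshold 1 member was called, Kif20b (6.08% of all genes). The marker lists moved here too, with 5 of 5 podocyte, 8 of 10 fibroblast and smooth muscle, 5 of 9 endothelial, 5 of 8 adipocyte and 4 of 10 macrophage genes higher in females. Loop, distal and collecting duct genes were higher for 7 of 8 and tubular injury genes for 4 of 8, and proximal tubule genes were higher for 4 and lower for 5 of 11. Adrenal cortex genes were higher for 2 and lower for 1 of 9, with a median log2 difference of 2.0, erythroid genes higher for 1 and lower for 2 of 7, hepatocyte genes lower for 4 of 19, and of 7 neutrophil genes 0 were called. Their part in the member differences was not tested.

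Across the 4 groups, 20 of 34 members had their highest mean in BPN/3J males. The lowest mean was in BPH/2J males for 16 members, in BPN/3J females for 14, in BPH/2J females for 3 and in BPN/3J males for 1. The members called in none of the 5 comparisons numbered 16. They were Cdk1, Ccna2, Top2a, the topoisomerase that untangles sister chromatids, Birc5 (survivin), the Aurora kinases Aurka and Aurkb, the checkpoint kinases Bub1 and Ttk, the condensin genes Ncapd2, Smc2 and Smc4, the chromokinesin Kif4, Tpx2, which activates Aurora A on the spindle, the centromeric histone Cenpa, and the cytokinesis genes Anln and Racgap1. Their log2 differences lay between -0.28 (Ccna2, strain in males) and 0.27 (Tpx2, strain in females) in the 4 pairwise comparisons. As examples of values without a call, Birc5 was 5.85, 6.02 and 6.28 in BPN/3J males, 5.82, 6.0 and 6.12 in BPH/2J males, 5.65, 5.92 and 6.06 in BPN/3J females and 5.67, 5.80 and 6.01 in BPH/2J females. Tpx2 had medians of 6.37, 6.32, 6.05 and 6.32 in the same order.

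**Figure D5:**
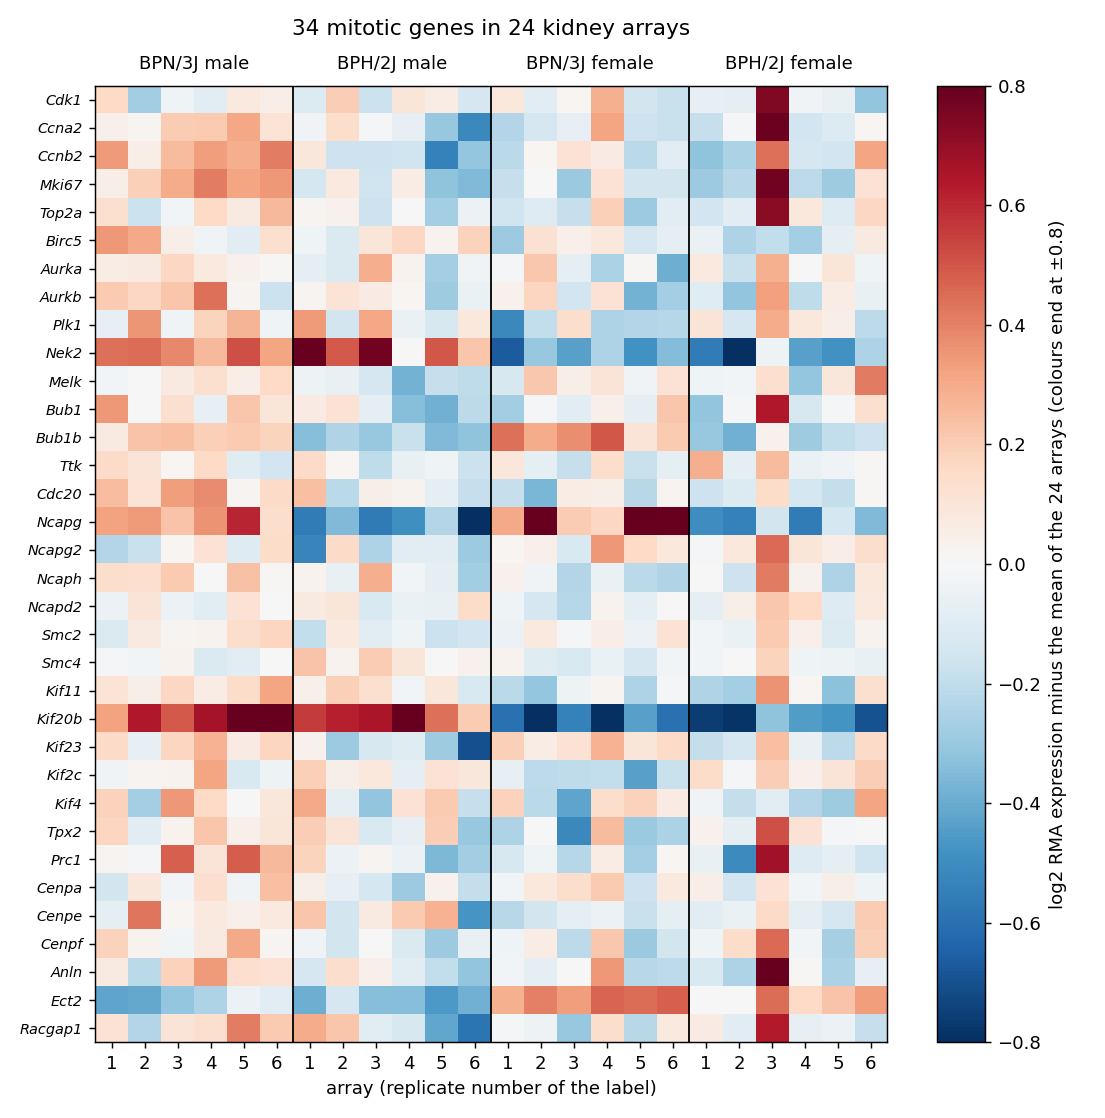
Log2 RMA expression of the 34 members (rows) in the 24 arrays (columns, by group and replicate number), each gene minus its mean over all arrays; colours end at a difference of 0.8. BPH/2J female array 3 is the darkest red column, highest of its group for 28 members, and Kif20b, Nek2, Ect2, Ncapg and Bub1b show blocks by sex or strain.

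The rest of the cell cycle was read from 7 lists of genes outside the set. Of 51 other mitotic genes, 1 was higher and 4 lower in BPH/2J males (median -0.04) and 3 were higher and 1 lower in females (median 0.07). The share called, 9.8% in males and 7.84% in females, was below that of all genes (16.7% and 15.9%). Zwint, a kinetochore protein, was lower in both sexes, by -0.21 (adjusted p = 0.00792) in males and -0.41 (adjusted p = 1.92e-05) in females. Kif18b, a depolymerising kinesin, was lower in males (-0.24, adjusted p = 0.0231), and Kif18a (0.29, adjusted p = 0.0279) and the cytokinesis kinase Cit (0.26, adjusted p = 0.0285) were higher in females. Of 11 cohesin genes, 0 were called in males in limma, with 1 at an unadjusted p under 0.05 (5396 of all 18782 genes). In females Rad21, the cohesin ring subunit, was higher (0.15, adjusted p = 0.00806). Its difference in males was -0.08, and its interaction was called (0.24, adjusted p = 0.0204). The acetyltransferase gene Esco1 was lower in females (-0.21, adjusted p = 0.000967).

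Genes of DNA replication held the largest strain differences of the cell cycle lists. Of 35 S phase genes, 4 were higher and 2 lower in males (median 0.00) and 6 higher and 3 lower in females (median 0.11). Mcm6, a subunit of the replicative helicase, was lower by -1.85 (adjusted p = 1.62e-09) in males and -1.90 (adjusted p = 9.92e-09) in females, while Dna2, a nuclease and helicase of lagging strand synthesis, was higher by 0.85 (adjusted p = 4.23e-08) and 0.55 (adjusted p = 5.73e-05). Gins3, of the helicase complex, was higher by 0.33 and 0.31 (adjusted p = 0.00121 and 0.00921), and Prim2, the large primase subunit, was lower in females (-0.35, adjusted p = 0.000677) and not called in males (-0.16).

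Of 16 genes of G1 and cell cycle entry, 4 were higher and 2 lower in males and 4 higher and 0 lower in females. Rbl1, the pocket protein p107, was higher in both sexes (0.42 and 0.35, adjusted p = 0.000454 and 0.000153), E2f3 in males (0.28, adjusted p = 0.0149) and E2f1 in females (0.31, adjusted p = 0.0248). Cdk6, the G1 kinase, was lower in BPH/2J males (-0.34, adjusted p = 0.000201) and higher in BPH/2J females (0.19, adjusted p = 0.00894), and the interaction was called for this gene too (0.53, adjusted p = 8.88e-06). Of 11 inhibitors and p53 targets, 1 was higher in males and 2 in females and 0 were lower. Cdkn1c, the inhibitor p57 and also a podocyte gene, was higher by 0.54 (adjusted p = 1.17e-05) and 0.56 (adjusted p = 8.01e-05), and Gadd45a by 0.25 (adjusted p = 0.0066) in females.

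The 13 genes of the complexes that control mitotic promoters had 1 higher and 2 lower in males and 1 higher and 0 lower in females. Tfdp2, an E2F partner, was higher in both sexes (0.19 and 0.22, adjusted p = 0.0166 and 0.00502), and in males Rbl2, the DREAM pocket protein p130 (-0.15, adjusted p = 0.0349), and Nfya, a subunit of the CCAAT-binding factor (-0.14, adjusted p = 0.0452), were lower. Of 18 genes of the G2 checkpoint and the anaphase-promoting complex, 3 were higher and 3 lower in males and 2 higher and 2 lower in females. Chek2, the checkpoint kinase, was higher by 0.49 and 0.47 (adjusted p = 0.00025 and 0.00107), Anapc4 was higher by 0.16 and 0.15 (adjusted p = 0.018 and 0.0493), Anapc5 was lower by -0.22 and -0.14 (adjusted p = 0.00131 and 0.0185) and Cdc26 was lower in males (-0.26, adjusted p = 0.0359).

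Between the sexes, the same lists gave calls in both directions. Over all genes, 16.5% were higher and 16.6% lower in BPN/3J females, and 17.4% and 15.5% in BPH/2J females. The other mitotic genes were called at 21.6% in BPN/3J and 19.6% in BPH/2J, below all genes (33.1% and 32.9%). Females were higher for 3 and lower for 8 of the 51 other mitotic genes in BPN/3J and higher for 6 and lower for 4 in BPH/2J. Of the 35 S phase genes 3 were higher and 7 lower in BPN/3J females and 5 higher and 5 lower in BPH/2J females. Of the 13 genes of the promoter complexes 0 were higher and 5 lower in BPN/3J females and 1 higher and 6 lower in BPH/2J females. The cohesin list had 2 higher and 2 lower in BPN/3J females and 3 higher and 1 lower in BPH/2J females, the G1 list 5 and 3, then 3 and 2, the inhibitor list 2 and 2, then 4 and 2, and the G2 checkpoint list 2 and 2 in each strain.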

How the data were processed

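Total RNA from mouse kidneys was hybridised to Affymetrix Mouse Gene ST arrays, and the deposited values are log2 expression after robust multiarray averaging (RMA) by the authors, with no version given for it. The values were used as deposited, with no pseudocount and no filter. Probe sets were named from the platform annotation: of 28853, 21159 (73.3%) carried 1 gene symbol, 1881 several and 5813 none. Groups came from the labels, with 6 arrays each, and arrays give no count depth, so their number limits the precision.

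Each comparison was fitted to its 12 arrays, and the interaction to all 24, with lmFit and eBayes in limma 3.58.1 (R 4.3.3), two-sided. The t-test named in the methods was run as an alternative. P-values were adjusted over all probe sets. The fit was tested on simulated data. Calls are at an adjusted p under 0.05. All members are named, with full statistics for those called, and of each other cell cycle list up to 4 genes with the largest difference among those called between strains. The members, the cell cycle and cell type lists and the tests were chosen with earlier results of these data known. Further alternatives were another threshold or test, a dim-probe filter at the 40th percentile, other scaling, covariates, a replicate block, other probe sets and leaving out arrays. Promoters were read from a RefSeq table (GRCm38.p6), whose first window per gene was searched on both strands for CHR, CCAAT and E2F letters. Neighbouring genes were ordered by the same assembly, for 18752 genes matched by gene identifier. Figures were drawn with matplotlib.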

Additional observations from a re-analysis of the deposited data

Results flagged for a closer look

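In each group of 6 arrays the highest and lowest value of every member was compared with its nearest neighbour, and 12 of the 136 groups of values held an array whose gap to the next exceeded Dixon's 95% critical share of the range for 6 values. Chance gives about 1 in 20 such groups. Of these, 8 were the highest value of BPH/2J female array 3: Cdk1 at 7.54 (next array 6.77), Ccna2 at 7.56 (6.79), Top2a at 6.96 (6.40), Ncapg2 at 6.47 (6.16), Smc4 at 8.72 (8.54), Tpx2 at 6.82 (6.42), Anln at 6.59 (5.80) and Racgap1 at 6.97 (6.40). The others were Ccna2 in BPN/3J female array 4 at 7.09 (6.71), Kif2c in BPN/3J male array 4 at 5.87 (5.58), Cenpe in BPN/3J male array 2 at 5.83 (5.47) and Ect2 in BPH/2J male array 2 at 8.39 (8.18).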

How the results depend on the processing

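No called difference of a named member changed sign. The uncalled female strain differences of Ccnb2 and Mki67 did, without BPH/2J female array 3. Ncapg, Bub1b, Ccnb2 and Mki67 in the male strain comparison, Ncapg, Bub1b and Kif2c in females, and Kif20b, Nek2 and Ect2 between the sexes of both strains kept their calls at an adjusted p under 0.05 in every alternative fit that tested them. Leaving out probe sets under the 40th percentile, which removes Ncapg, Bub1b and 12 other members, left 0 members called in the female strain comparison and 2 between the sexes of BPH/2J. In the male strain comparison this filter gave 5 members lower and 1 higher, as did the fit to all 24 arrays. Either t-test gave 5 lower and 0 higher there. With Bonferroni in place of Benjamini-Hochberg, calls went from 7 to 2 (strain, males), 3 to 0 (strain, females), 12 to 3 (sex, BPN/3J) and 4 to 1 (sex, BPH/2J), and with a change above 1.5-fold required as well to 1, 1, 3 and 2. The 2 Bonferroni calls in males became 1 with either t-test, the fit to all 24 arrays, the replicate block, the covariates or the 1.5-fold rule, 0 with the dim filter, and 1 to 2 without single arrays, being 1 without any of BPN/3J male arrays 1 to 5 or BPH/2J male arrays 1 to 4. In females 0 Bonferroni calls became 2 in the fit to all 24 arrays, and the Benjamini-Hochberg count was 3 to 5 without single arrays, reaching 5 without BPH/2J female array 3.

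Over the other cell cycle lists, 27 genes were called between strains in males and 26 in females. These became 3 and 3 with Bonferroni and 2 and 1 with the 1.5-fold rule, and in females 17 without BPN/3J female arrays 2 and 5. The 3 Bonferroni calls in males became 7 in the fit to all 24 arrays and 5 with trended robust variances. Those in females became 5 in the fit to all 24 arrays and with the dim filter, and 1 with the t-test of unequal variances, with the 1.5-fold rule and without arrays 2 and 5. The cause of these shifts was not tested. Without single arrays the member calls were 5 to 9 between strains in males, 9 to 15 between the sexes of BPN/3J and 3 to 5 between those of BPH/2J, and the other lists had 19 to 26 between strains in either sex. For 14 members the mean signal lay under the 40th percentile of the array, which limits how firmly their differences can be read.

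The replicate numbers are shared across groups, and same-numbered arrays did not deviate together in every pair (correlations of their deviations from -0.272 to 0.021 in males, -0.567 to 0.343 in females, -0.345 to 0.444 in BPN/3J and -0.132 to 0.168 in BPH/2J). Of the 6 arrays of 1 group in each comparison, 0, 4, 2 and 0 correlated best with the array of their own number. The numbers were not used to pair the arrays in the main fits. Whether they mark pairs in the female strain comparison, with 4 of 6, was not tested. With the number as a replicate block, member calls were 6, 3, 13 and 4, and the other lists had 17 calls in males, with 1 Bonferroni call in females.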
